A study of Mus musculus with 54 samples.

Results

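Dapagliflozin was compared with vehicle in early proximal tubules of diabetic mice that lacked Sglt1. The members of this comparison are 12 samples of the 48 in the deposited expression table. They were chosen by the labelled sample group, 6 samples of Akita Sglt1 knockouts on dapagliflozin and 6 of Akita Sglt1 knockouts on vehicle. All 12742 genes with a TPM (transcripts scaled to the same total in each library) of at least 1 in at least 5 of the 48 samples were tested.

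The mice were males on the DBA background, 14 weeks old, carrying the Ins2 Akita/+ mutation and Sglt1-/-. Dapagliflozin was given in the food at 10 mg/kg diet for 2 weeks, and the control mice received vehicle for the same time. Every sample held 70 to 80 tubules that stained for SGLT2 and were cut from kidney sections by laser capture, and total RNA was sequenced. Both groups therefore share the diabetes mutation, the deletion and the selection of SGLT2-positive tubules. The same drug was given to Akita wild-type mice (5 dapagliflozin and 6 vehicle samples) and to non-diabetic knockouts (6 and 5). These serve below to test whether the difference changes with genotype or with diabetes. No label says which animal a sample came from, so p-values measure only the spread between samples, which may be partly technical. Sample numbers only name the samples.

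SGLT2, encoded by Slc5a2, and SGLT1, encoded by Slc5a1, carry glucose with sodium from the filtrate into proximal tubule cells. In the early segments SGLT2 does most of this work, and SGLT1 takes up what remains further along. The Akita mutation causes misfolding of insulin 2 and loss of beta cells, so the tubule faces a high glucose load. Dapagliflozin inhibits SGLT2. In mice without SGLT1 the second route of glucose uptake is missing, so SGLT2 inhibition leaves the proximal tubule with little capacity to reabsorb glucose.

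The deleted gene was looked at first. Slc5a1 was at or near 0 in all 12 libraries, with at most 0.0886 TPM in vehicle and 0.0856 TPM in dapagliflozin tubules. It passed the filter, so at least 5 samples outside this comparison held 1 TPM or more. Its level in wild-type tubules is not given here, so these values alone do not show the deletion. Slc5a2, the gene of the drug's target and of the protein used to find the tubules, ran from 118 TPM through a median of 182 to 234 in vehicle tubules. With dapagliflozin it ran from 82.5 through 152 to 252. The groups overlapped over most of their range. The log2 difference was -0.19 with a 95% confidence interval from -0.70 to 0.31, which includes 0. Under the 3 other scalings described below it was -0.43 (unadjusted p = 0.00818), -0.46 (0.00586) and -0.45 (0.0338), and none passed adjustment (limma, lowest adjusted p = 0.585). On all scales used below a difference is dapagliflozin minus vehicle on log2(TPM + 1), which understates changes of low genes.

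The makeup of the libraries touches every result below. Nuclear protein-coding genes took 8.77% ± 2.65 of TPM in vehicle libraries and 10.4% ± 2.31 in dapagliflozin libraries (SD, n = 6 each). The most abundant ribosomal RNA took 52.2% and 53.5%. The difference did not pass (two-sided exact permutation test, p = 0.277, 0.808 after adjustment over 15 library measures; the smallest p possible is 0.00216). Vehicle samples 4, 5 and 6 had the lowest shares of the 12, down to 6.02%, and samples 5 and 6 also the fewest genes detected, 8529 and 8465. TPM sums to the same total in every library, so a lower protein-coding share means less TPM for those genes in sum. None of the 15 measures, which include 9 marker lists of other cell types, differed after adjustment. Early proximal tubule markers summed to 1721 TPM in vehicle and 2013 in dapagliflozin libraries, while those of podocytes, the glomerular filter cells, summed to 19.4 and 24.3, and those of the thick ascending limb to 60.5 and 57.8. Sequencing depth is unknown, because TPM keeps none.

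**Figure D1:**
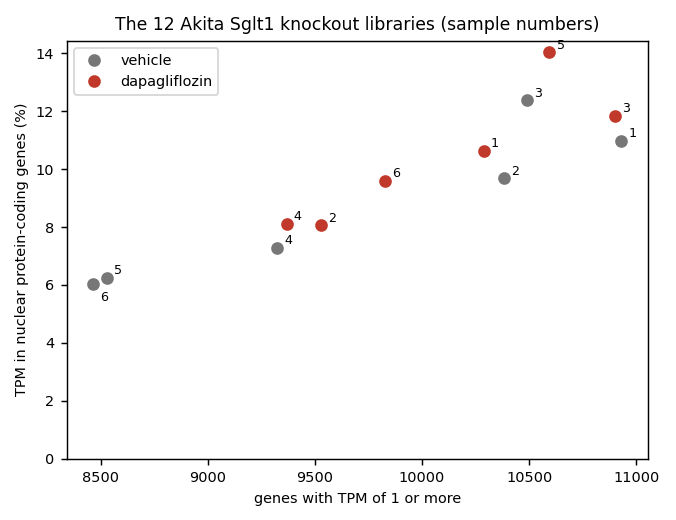
Each point is 1 of the 12 Akita Sglt1 knockout libraries, with the number of genes at a TPM of 1 or more on the x axis and the percentage of TPM in nuclear protein-coding genes on the y axis; numbers are sample numbers. Vehicle samples 4, 5 and 6 (grey) hold the 3 lowest shares, all under 8%, and the dapagliflozin libraries (red) lie between 8.06% and 14.04%.

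No single gene passed the test across all genes. With limma and Benjamini-Hochberg adjustment 0 of 12742 genes were called at an adjusted p under 0.05 (0%), and the lowest adjusted p was 0.452. An unadjusted p under 0.05 was found for 967 genes (7.59%), 887 of them higher with dapagliflozin (6.96%) and 80 lower (0.628%). The same imbalance was seen in the whole table. Of all tested genes 9426 lay higher with dapagliflozin, with a median log2 difference of 0.15, and the median was larger among abundant genes (0.08 under 2 TPM, 0.24 at 10 TPM or more). After median-of-ratios scaling 49.1% lay higher, and of 843 genes at an unadjusted p under 0.05, 420 were higher. After rescaling to nuclear protein-coding genes 348 of 856 were higher, and after quantile normalization 438 of 825. Without vehicle samples 4, 5 and 6 the median turned to -0.12, and 75 of 656 were higher. Those 3 were left out of vehicle alone for their low shares, so this turn cannot show a fall with dapagliflozin. That fit also holds fewer vehicle samples. Log2 differences of genes given below without those 3 samples stand against its median of -0.12. The count of 967 also depended on single libraries. It was 504 without dapagliflozin sample 5, 1591 without vehicle sample 3, and 633, 591 and 555 without vehicle samples 4, 5 and 6 in turn. The fitted differences below are therefore read against the median of all genes. In tissue samples fewer cells of a type and less RNA per cell cannot be told apart.

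**Figure D2:**
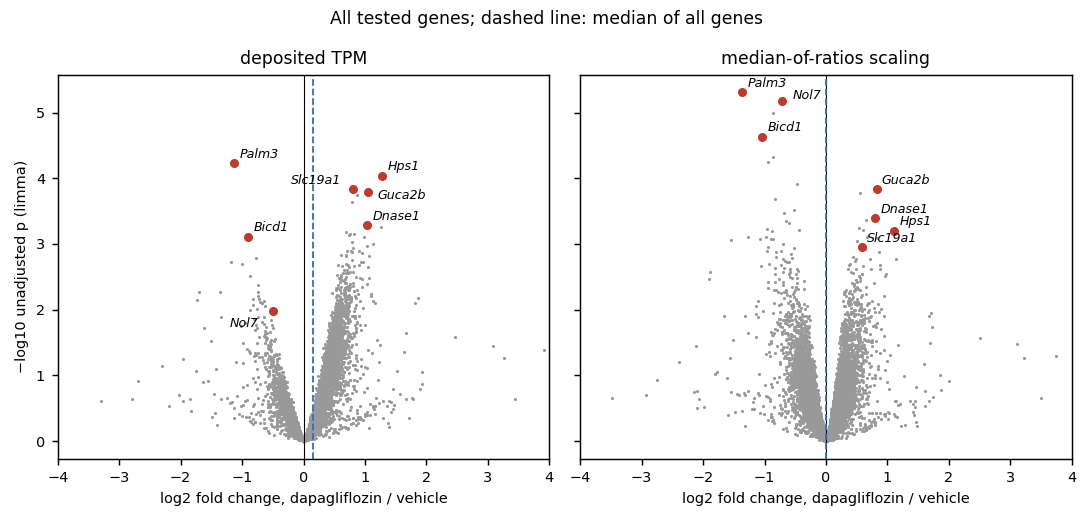
Volcano plots of all 12742 tested genes, with the log2 fold change of dapagliflozin against vehicle on the x axis and the -log10 unadjusted limma p on the y axis, from deposited TPM (left) and after median-of-ratios scaling (right). The dashed line is the median of all genes, 0.15 on the left and close to 0 on the right, and Palm3 has the smallest p in both panels.

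Palm3 stood first in this comparison. It encodes paralemmin 3, a membrane-associated protein of the paralemmin family (ENSMUSG00000047986, chr8:84021471-84030295 in GRCm38). Its promoter in RefSeq (GRCm38.p6, chr8:84021224-84021523, plus strand, 250 bases before to 50 after the start) is shown because Palm3 was the 1 gene whose groups did not overlap in the lower direction. No base is in capitals, as none of the 4 motifs searched was found.
Palm3: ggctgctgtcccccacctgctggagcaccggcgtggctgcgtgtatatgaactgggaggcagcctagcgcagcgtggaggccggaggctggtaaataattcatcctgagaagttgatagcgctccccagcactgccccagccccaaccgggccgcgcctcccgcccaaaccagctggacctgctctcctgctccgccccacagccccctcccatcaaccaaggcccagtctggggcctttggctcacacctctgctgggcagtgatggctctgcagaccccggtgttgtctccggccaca

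In vehicle tubules Palm3 ran from 12.3 TPM through a median of 12.8 to 15.8, and with dapagliflozin from 3.97 through 5.11 to 8.58. All 6 dapagliflozin samples lay below all 6 vehicle samples, which was true of 1 of all tested genes (0.00785%). The means were 13.4 ± 1.33 and 5.72 ± 1.87 TPM (SD, n = 6 each), a log2 difference of -1.13 ± 0.26 (SE; limma, adjusted p = 0.452). Palm3 fell under each of the 3 other scalings, by 1.36 after median-of-ratios scaling (limma, adjusted p = 0.0421), by 1.39 after nuclear protein-coding rescaling (adjusted p = 0.025) and by 1.34 after quantile normalization (adjusted p = 0.0365). Without vehicle samples 4, 5 and 6 the log2 difference was -1.07. In deposited TPM its direction was opposite to that of most genes, of which 74% lay higher. After median-of-ratios scaling 49.1% lay higher. Without vehicle samples 4, 5 and 6 the median of all genes was itself below 0, at -0.12.

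Nol7, which encodes a nucleolar protein, also passed under the 3 other scalings. It is named because it passed there, and not by the rule for naming genes. Nol7 averaged 21.9 ± 5.69 TPM in vehicle and 15.1 ± 3.34 in dapagliflozin tubules, with overlapping groups and a log2 difference of -0.49 in deposited TPM (limma, adjusted p = 0.643). It fell by 0.72 after median-of-ratios scaling (adjusted p = 0.0421).

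Bicd1, an adaptor that links cargo to the dynein motor, averaged 3.10 ± 1.74 TPM in vehicle and 1.04 ± 0.337 in dapagliflozin tubules, a log2 difference of -0.90. Bspry, which encodes a B-box and SPRY domain protein, averaged 7.62 ± 2.71 and 4.06 ± 1.17 TPM, a log2 difference of -0.74. In Bicd1 only the lowest vehicle sample, at 0.922 TPM, lay among the dapagliflozin samples, and in Bspry the lowest 2 did. Spc24, a kinetochore component, Trp53i13, a p53-inducible gene, Sap25, a component of the Sin3 complex, Pycard, the adaptor of inflammasomes, and Ang, a secreted ribonuclease, all had medians of at most 3.88 TPM in vehicle tubules and at most 0.5 TPM with dapagliflozin. Rprl3, an RNase P RNA-like gene, averaged 14.9 and 5.36 TPM, and the 5S ribosomal RNA copy n-R5s194 was listed at 0 in all dapagliflozin samples. Those last genes have near-identical copies, among which reads cannot be assigned with certainty. All of these had adjusted p values of 0.643 (limma).

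In the higher direction Guca2b was among the 5 genes with the lowest adjusted p. It encodes uroguanylin, a peptide of gut and kidney that acts on guanylyl cyclase C and promotes sodium excretion (ENSMUSG00000032978, chr4:119656607-119658954 in GRCm38). Its RefSeq promoter (GRCm38.p6, chr4:119658896-119659195, minus strand) is shown beside that of Pck1 (chr2:173152823-173153122, plus strand), because both genes lay higher in all 6 dapagliflozin samples than the vehicle median. How many of all genes lay so is not given here, and 74% of all genes lay higher with dapagliflozin. The same limit holds for the other genes described in this way below. Pck1 encodes the cytosolic phosphoenolpyruvate carboxykinase of gluconeogenesis and ammonia production. Capitals mark the match to a motif.
Guca2b: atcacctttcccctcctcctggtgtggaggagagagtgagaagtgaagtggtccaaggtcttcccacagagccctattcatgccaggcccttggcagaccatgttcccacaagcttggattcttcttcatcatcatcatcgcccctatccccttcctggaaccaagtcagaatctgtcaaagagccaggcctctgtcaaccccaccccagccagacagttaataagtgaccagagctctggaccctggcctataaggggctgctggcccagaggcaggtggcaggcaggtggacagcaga
Pck1: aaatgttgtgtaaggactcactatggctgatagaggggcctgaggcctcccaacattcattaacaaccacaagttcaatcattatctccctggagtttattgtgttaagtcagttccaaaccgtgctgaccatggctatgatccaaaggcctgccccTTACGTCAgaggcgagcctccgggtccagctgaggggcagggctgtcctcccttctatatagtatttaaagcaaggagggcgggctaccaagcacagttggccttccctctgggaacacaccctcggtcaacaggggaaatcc

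The motifs were searched on both strands of the 3 promoters. These were the TATA box (TATAAA, in 13.6% of 32851 RefSeq promoters of this length), the CCAAT box (CCAAT, 37.4%), the cAMP response element (TGACGTNA, 2.93%) and the FOXO element (TGTTTAC, 3.65%). The single match was the cAMP response element of Pck1, read on the minus strand, which begins 93 bases before the start. A match describes the letters and no binding was measured.

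In vehicle tubules Guca2b ran from 14.1 TPM through a median of 23.3 to 31.0, and with dapagliflozin from 27.7 through 39.8 to 78.3. Dapagliflozin sample 3 lay inside the vehicle range and the other 5 above it. The log2 difference was 1.05 ± 0.26 (SE; limma, adjusted p = 0.452), and 0.61 without vehicle samples 4, 5 and 6, which held its 3 lowest vehicle values.

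Slc19a1, the reduced folate carrier, and Dnase1, a secreted endonuclease, were 2 more abundant genes of small p. Slc19a1 ran from 4.91 TPM through 8.2 to 12 in vehicle and from 9.6 through 14.8 to 20.4 in dapagliflozin tubules. Dnase1 ran from 88.1 through 127 to 219 TPM and from 185 through 240.4 to 403. The lowest dapagliflozin sample of Slc19a1 and the lowest 3 of Dnase1 lay within the vehicle range. The log2 differences were 0.80 ± 0.19 for Slc19a1 (limma, adjusted p = 0.452) and 1.04 ± 0.28 for Dnase1 (adjusted p = 0.643). They were 0.41 and 0.68 without vehicle samples 4, 5 and 6.

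Hps1, Spcs2, Ccng2 and Hspa1a completed the group of smallest p. Hps1, a subunit of a complex needed for lysosome-related organelles, averaged 1.81 ± 0.756 TPM in vehicle and 6.09 ± 2.75 in dapagliflozin tubules, a log2 difference of 1.28 ± 0.30 (limma, adjusted p = 0.452). Spcs2, a subunit of the signal peptidase, averaged 4.86 and 10.2 TPM, with a log2 difference of 0.88 (adjusted p = 0.452). Without dapagliflozin sample 4 Spcs2 rose by 1.085 and passed (limma, adjusted p = 0.0391). Ccng2, cyclin G2, averaged 0.726 and 2.02 TPM, and Hspa1a, the inducible 70-kilodalton heat shock protein, 0.278 and 2.73 TPM. These last 2 were among the 17 genes (0.133%) in which all dapagliflozin samples lay above all vehicle samples, and both lay mostly under 4 TPM. Their log2 differences stayed near the same size without vehicle samples 4, 5 and 6, at 0.76 for Ccng2 and 1.23 for Hspa1a. Hspa1a has a near-identical neighbour, Hspa1b, so its share of the reads is uncertain.

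**Figure D3:**
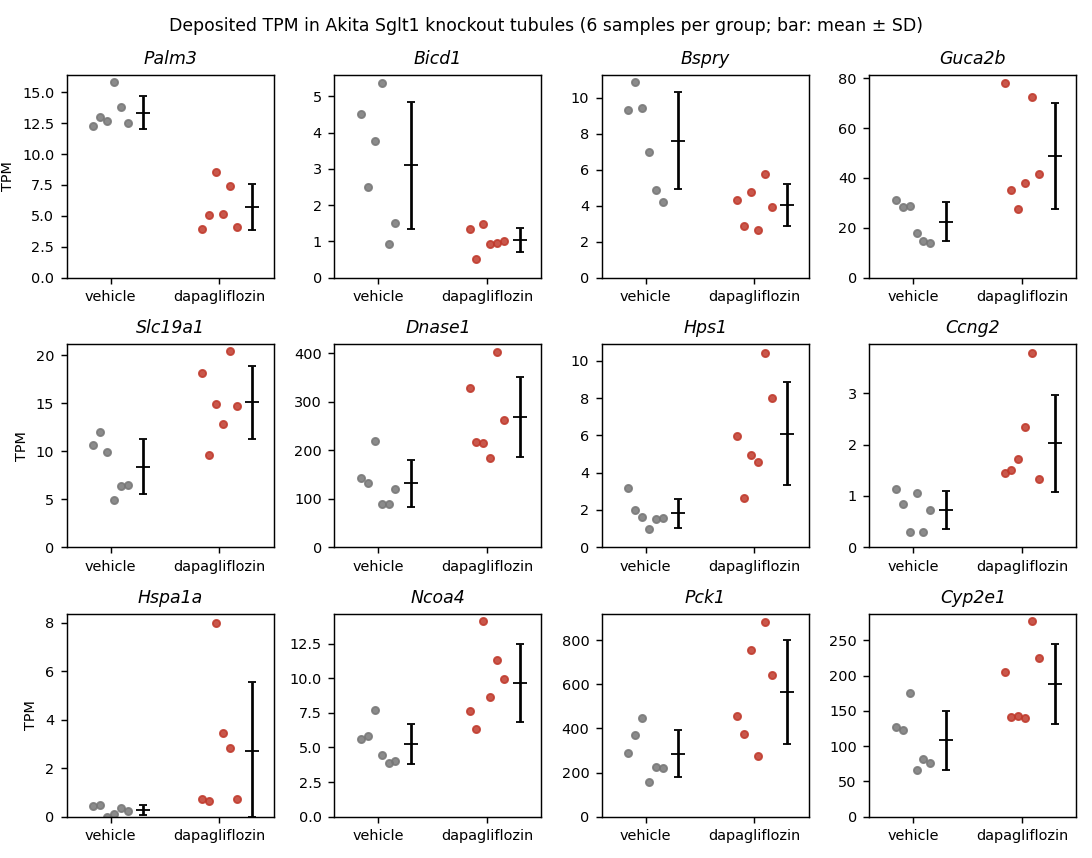
Deposited TPM of 12 genes in each of the 6 vehicle (grey) and 6 dapagliflozin (red) samples, with the mean ± SD to the right of each group (the lower bar of Hspa1a stops at 0). Palm3 is the only panel with every red point below every grey point, while Ccng2 and Hspa1a have every red point above.

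Other genes of the 10 smallest p in the higher direction were Ncoa4, Gas2 and Btd. Ncoa4, the receptor that delivers ferritin to the lysosome, averaged 5.26 and 9.66 TPM, a log2 difference of 0.76. Other genes of iron uptake and sensing lay higher. The transferrin receptor Tfrc averaged 5 and 10.7 TPM, and the iron-responsive protein gene Ireb2 7.70 and 13.1 TPM. Gas2, an actin-binding growth arrest gene, averaged 13.9 and 24.7 TPM, and Btd, biotinidase, 1.66 and 3.25 TPM. In the list of metallothionein and iron genes 13 of 14 tested members lay higher and 4 had an unadjusted p under 0.05, 3 after nuclear protein-coding rescaling. None passed adjustment (limma).

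Gene lists are described by their median log2 difference less the median of all genes, called the relative median here, in deposited TPM and after rescaling to nuclear protein-coding genes. In deposited TPM the median of all genes was 0.15, but 0.24 among those at 10 TPM or more. Relative medians were not adjusted for level, so small ones in lists of abundant genes show no rise beyond that of abundant genes. Of 894 listed genes 810 were tested, and no member of any of the 57 lists was called. Counts of members that lay higher stand against 74% of all genes in deposited TPM, 86.3% of those at 10 TPM or more. After rescaling 45.7% of all genes lay higher. Counts of members at an unadjusted p under 0.05 stand against 6.96% of all genes higher and 0.628% lower. These counts depended on the scaling and on vehicle samples 4, 5 and 6. A member higher at that p was found in 39 of the 57 lists in deposited TPM, in 27 after rescaling, and in 5 without those 3 samples. The last count comes from fewer vehicle samples and from a fit whose all-gene median was -0.12.

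The list of SGLT and GLUT glucose transport, which also holds carriers of fructose and of monocarboxylates, lay close to all genes. Its relative median was 0.07 (0.04 rescaled), with 9 of 12 members higher. The 12 include the deleted Slc5a1, which was at or near 0 here and passed the filter only through samples outside this comparison. Its direction here carries no information. Slc5a10, a fructose and mannose transporter, averaged 36.7 ± 11.6 and 56.1 ± 23.4 TPM, a log2 difference of 0.56. Slc2a5, the fructose transporter GLUT5, averaged 13.9 and 23.3 TPM, a log2 difference of 0.63. Slc2a2, encoding GLUT2, through which glucose leaves the cell to the blood, averaged 13.7 and 18 TPM. Of the list 3 members had an unadjusted p under 0.05, all higher (Slc5a8, Slc5a10 and Slc2a5), and all overlapped between groups. The count was 0 under each of the 3 other scalings.

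Fructose and polyol enzymes stood highest of all lists. All 7 tested members lay above the median of all genes, with a relative median of 0.39 (0.32 rescaled) and 4 members at an unadjusted p under 0.05 (3 rescaled). Khk, ketohexokinase, which phosphorylates fructose, ran from 42.4 TPM through 52.5 to 72.5 in vehicle and from 64.9 through 79.5 to 100.1 in dapagliflozin tubules. A further enzyme of this route, triokinase, listed under its older symbol Dak, averaged 39.5 ± 8.29 and 58.7 ± 11.5 TPM. In both genes every dapagliflozin sample lay above the vehicle median, and the upper vehicle samples overlapped them. Their log2 differences were 0.53 and 0.56 (limma, adjusted p = 0.643 each). Without vehicle samples 4, 5 and 6 the relative median was 0.39 again, but no member kept an unadjusted p under 0.05.

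Gluconeogenesis, by which the proximal tubule makes glucose from lactate and glutamine, had a relative median of 0.32 (0.23 rescaled), with 7 of 9 enzymes higher. Pck1 ran from 160 TPM through 257 to 448 in vehicle and from 274 through 551 to 884 in dapagliflozin tubules. All 6 dapagliflozin samples exceeded the vehicle median, and the lowest 2 lay within the vehicle range. The log2 difference was 0.95 ± 0.31 (SE; limma, adjusted p = 0.643), and 0.52 without vehicle samples 4, 5 and 6. Fbp1, fructose 1,6-bisphosphatase, averaged 72.6 and 99.9 TPM, and Slc37a4, the glucose 6-phosphate translocase, 21.5 and 30.5 TPM. G6pc, the catalytic subunit that releases glucose, averaged 38.8 and 44.2 TPM, with a log2 difference of 0.08, below the median of all genes, and -0.15 after median-of-ratios scaling. Pck2, the mitochondrial isoform, averaged 1.31 and 1.02 TPM. Glycolysis enzymes had a relative median of 0.11 (0.08 rescaled), with 2 of 15 at an unadjusted p under 0.05, Gapdh and Pklr, and 0 under each of the 3 other scalings.

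Ammonia production from glutamine shares Pck1 with gluconeogenesis and had a relative median of 0.30 (0.22 rescaled). Slc38a3, the basolateral glutamine transporter SNAT3, ran from 0.701 TPM through 1.88 to 2.68 in vehicle and from 1.95 through 4.66 to 11.7 in dapagliflozin tubules. Only the lowest dapagliflozin sample lay within the vehicle range. Its log2 difference of 1.14 ± 0.32 (limma, adjusted p = 0.643) was 0.94 without vehicle samples 4, 5 and 6. Glud1, glutamate dehydrogenase, averaged 47.6 and 74.5 TPM. Of the 11 genes 5 had an unadjusted p under 0.05, all higher, and 2 after rescaling.

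Mitochondrial fuel use had smaller relative medians. Fatty acid oxidation had 0.22 (0.18 rescaled), with 17 of 18 genes higher, among them Etfdh, the flavoprotein dehydrogenase that passes electrons to ubiquinone (7.56 and 12.1 TPM), Etfa (16.1 and 24 TPM) and Decr1 (5.38 and 8.59). The TCA cycle and pyruvate entry had 0.20 (0.12 rescaled), with 23 of 24 higher and 8 at an unadjusted p under 0.05 (2 rescaled), among them Pdhb (10.9 and 17.8 TPM) and Dld (17.4 and 30.7), both subunits of the pyruvate dehydrogenase complex. Ketone metabolism and PPAR-alpha targets had 0.18 (0.15 rescaled). Cyp4a10, a fatty acid hydroxylase and PPAR-alpha target, averaged 2.43 and 4.97 TPM. Nuclear subunits of complex I had 0.11 (0.03 rescaled), those of complexes III to V 0.07 (-0.02 rescaled) and messenger RNAs of the mitochondrial genome 0.07 (-0.02 rescaled), so the sign of the last pair depended on the scaling. Ribosomal proteins (0.02, rescaled -0.06) and proteasome subunits (0.07, rescaled close to 0) lay near all genes.

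Drug and steroid metabolism had 22 of 23 members higher and a relative median of 0.37 (0.30 rescaled), with 11 at an unadjusted p under 0.05. After rescaling 7 members had such a p, and without vehicle samples 4, 5 and 6 the number was 0. Cyp2e1, an ethanol-inducible cytochrome P450, ran from 66.2 TPM through 103 to 176 in vehicle and from 139.5 through 174 to 278 in dapagliflozin tubules. All dapagliflozin samples exceeded the vehicle median, and the lower 3 lay within the vehicle range. Its log2 difference was 0.83 ± 0.26 (SE; limma, adjusted p = 0.643), and 0.37 without vehicle samples 4, 5 and 6. The UDP-glycosyltransferase genes Ugt3a1 (6.24 and 11.7 TPM) and Ugt3a2 (39.0 and 60.3 TPM) and the carboxylesterase Ces2c (12.5 and 21.2 TPM) lay higher as well. Ephx1, microsomal epoxide hydrolase, averaged 3.05 and 1.92 TPM and was the only member lower.

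Genes that are higher in male mouse kidney or induced by androgen formed a list that shares Cyp2e1 and Cyp4b1 with drug metabolism. All 13 tested members lay above the median of all genes, with a relative median of 0.39 (0.32 rescaled) and 5 at an unadjusted p under 0.05 (2 rescaled). Kap, the androgen-regulated kidney protein, averaged 1179 and 1761 TPM. Cyp4a12a, which makes 20-HETE from arachidonic acid, averaged 32.1 and 56.2 TPM, although its near copies in the Cyp4a cluster make the assignment of reads uncertain. The relative median was 0.30 without vehicle samples 4, 5 and 6, with 9 of 13 higher.

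Late proximal tubule markers lay higher, in all 9 tested members, with a relative median of 0.29 (0.30 rescaled). Acy3, aminoacylase 3, averaged 299 ± 107 and 453 ± 129 TPM, and Slc5a8, a sodium-coupled monocarboxylate transporter, 6.35 and 9.70 TPM. The summed late markers were 988 ± 394 TPM in vehicle and 1311 ± 305 in dapagliflozin libraries (SD, n = 6 each; exact permutation test, p = 0.139, 0.808 adjusted). Most of that sum came from Slc27a2, Acy3 and Atp11a, with vehicle medians of 455, 300 and 125 TPM. Slc22a7, Slc22a13, Cyp7b1 and Slc7a12 had vehicle medians of 0.95, 0.58, 0.40 and 0.13 TPM. The sum therefore says little about the content of late tubule. Early markers had a relative median of 0.12 (0.03 rescaled). The part of the late markers in the male-biased and drug metabolism lists was not tested.

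Transport of organic ions had a relative median of 0.20 (0.16 rescaled), led by the phosphate and urate transporters Slc17a1 (19.8 and 31.2 TPM) and Slc17a3 (28.9 and 42.4 TPM) and the efflux pump Abcc2 (32.0 and 50.7 TPM). Slc13a2 and Slc13a3, the sodium-coupled dicarboxylate transporters that take up citrate and succinate, averaged 4.53 and 8.32 TPM and 44.8 and 69.6 TPM. Sodium and acid-base transport had a relative median of 0.12 (0.02 rescaled). Slc9a3, the sodium-proton exchanger NHE3, averaged 20.1 and 20.4 TPM, and the sign of its log2 difference, 0.11, turned under the 3 other scalings.

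In the list of phosphate and vitamin D genes 9 of 12 lay higher, and the 1 member at an unadjusted p under 0.05 lay lower. Slc34a3, the phosphate cotransporter NaPi-IIc, averaged 8.84 ± 2.94 and 5.66 ± 4.06 TPM with overlapping groups, a log2 difference of -0.72 (limma, adjusted p = 0.65). Slc34a1, the major phosphate cotransporter, averaged 612 and 711 TPM, a log2 difference of 0.25 that was -0.02 after nuclear protein-coding rescaling. Water channels and claudins had a relative median of 0.32 (0.26 rescaled), with the paracellular channel genes Cldn2 (22.3 and 31.4 TPM) and Cldn10 (8.11 and 12.5 TPM). Brush border genes had 0.15 (0.10 rescaled), among them Anpep, an aminopeptidase (10.1 and 15.4 TPM). Ace, angiotensin-converting enzyme, averaged 5.56 and 10.1 TPM, and the renin-angiotensin list had 0.26 (0.27 rescaled), but 0.10 without vehicle samples 4, 5 and 6. Megalin and cubilin endocytosis had 0.11 (0.05 rescaled), with no member at an unadjusted p under 0.05.

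Heat shock chaperones lay higher in all 16 tested members, 10 of them at an unadjusted p under 0.05 (4 rescaled), with a relative median of 0.31 (0.26 rescaled). The list is labelled cytosolic, but it also holds the mitochondrial chaperonins Hspd1 and Hspe1. Hsph1, an HSP70 nucleotide exchange factor, ran from 6.87 TPM through 12.4 to 16.3 in vehicle and from 13.2 through 24.3 to 98.2 in dapagliflozin tubules. Dnaja1, a cochaperone of HSP70, ran from 14.9 through 26.7 to 31.2 TPM and from 27.4 through 40.2 to 78.8. Dapagliflozin sample 3 held the highest value of both genes and of Hspa1a, and the groups overlapped in Hsph1 and Dnaja1. Their log2 differences were 1.17 ± 0.42 and 0.73 ± 0.23 (limma, adjusted p = 0.643 each). The relative median of the list was 0.35 without vehicle samples 4, 5 and 6, with 15 of 16 higher and 3 at an unadjusted p under 0.05. Without dapagliflozin sample 3 the log2 difference of Hsph1 was 0.80.

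Other stress lists lay closer to all genes. Endoplasmic reticulum chaperones had a relative median of 0.15 (0.08 rescaled), with Dnajc3, Syvn1 and Herpud1 at an unadjusted p under 0.05 (2 members rescaled), and Herpud1, of the degradation machinery, at 21.9 and 35.9 TPM. NRF2 and glutathione genes had 0.22 (0.16 rescaled), with all 17 tested members higher. The ATF4 and amino acid response lay below all genes at -0.15 (-0.16 rescaled), and Phgdh, which starts serine synthesis, averaged 3.92 ± 1.48 and 1.82 ± 1.66 TPM, a log2 difference of -0.98 with overlapping groups. Chemokines and NF-kappa-B targets had -0.21 (-0.16 rescaled), and none of the 12 tested had an unadjusted p under 0.05.

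Injury genes lay in both directions. Gdf15, a stress-induced cytokine, averaged 1.26 ± 0.791 and 0.378 ± 0.317 TPM, a log2 difference of -0.68 (limma, adjusted p = 0.643). Clu, clusterin, averaged 3.44 ± 2.37 and 7.11 ± 5.23 TPM, a log2 difference of 0.79 (adjusted p = 0.654). Spp1, osteopontin, averaged 15.2 and 10.4 TPM. The list's relative median was -0.04 in deposited TPM and 0.04 rescaled, so its sign depended on the scaling. Tgfb1, a cytokine of matrix production, averaged 0.802 and 1.47 TPM, a log2 difference of 0.47. Cholesterol synthesis had a relative median of 0.15 (0.14 rescaled), with Nsdhl, Hmgcs1 and Sqle at an unadjusted p under 0.05 (1 member rescaled). Fibroblast and smooth muscle markers had -0.21 (-0.13 rescaled), endothelial markers -0.07 (-0.11), and none of these markers had an unadjusted p under 0.05.

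**Figure D4:**
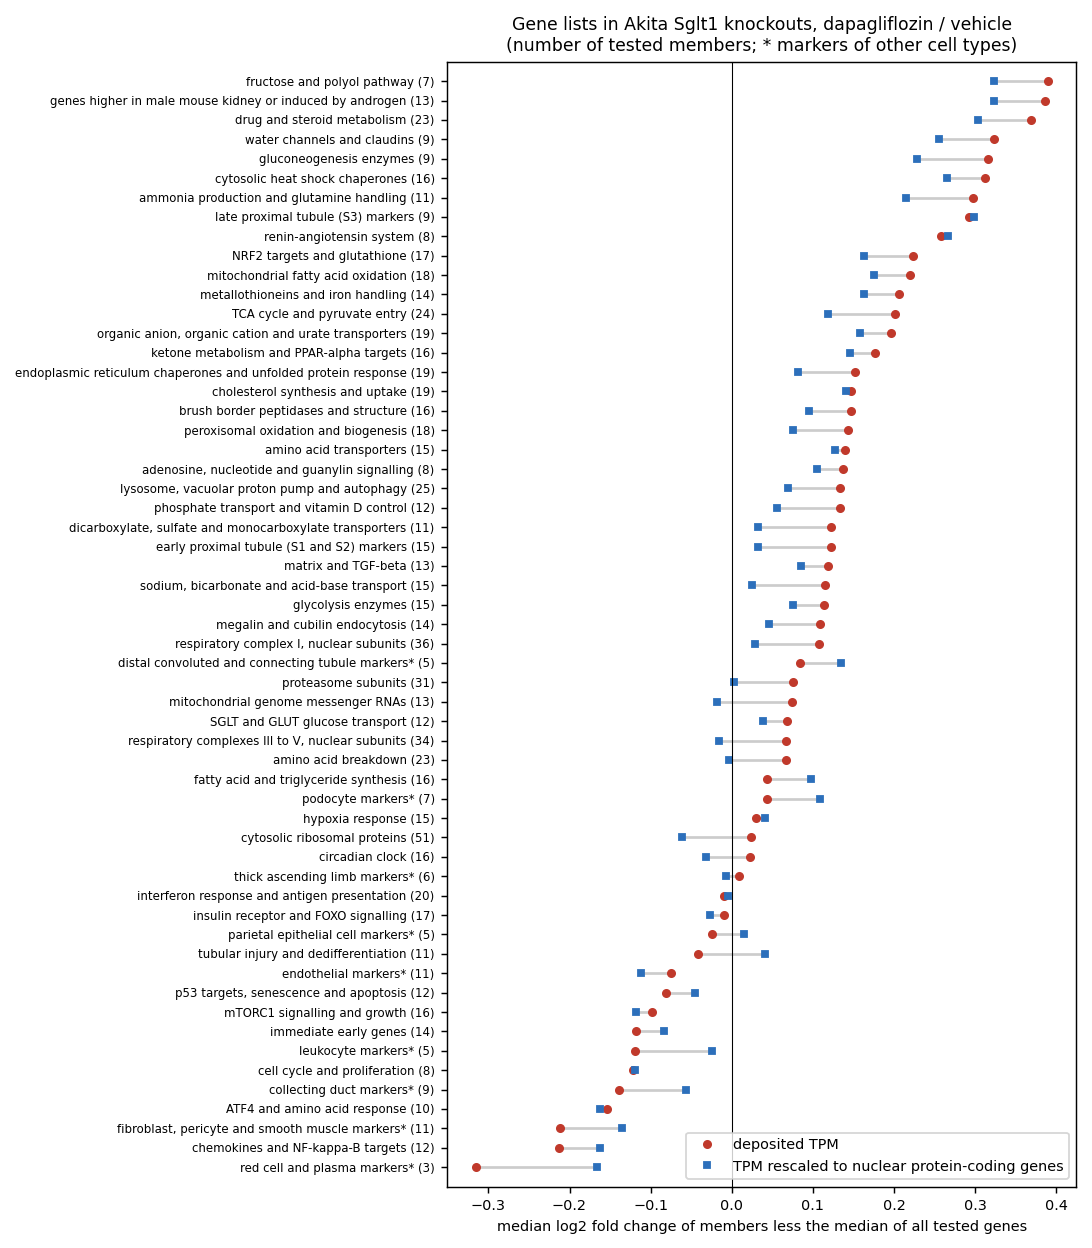
Relative medians of the 57 gene lists, the median log2 fold change of their tested members less that of all tested genes, from deposited TPM (red circles) and after rescaling to nuclear protein-coding genes (blue squares); the number of tested members is in brackets. Fructose and polyol genes are highest at 0.39, and the heat shock, male-biased, drug metabolism and gluconeogenesis lists lie above 0.20 under both.

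Akita wild-type mice, in which Sglt1 is present, gave a test of whether the response differs with the deletion. The difference of the differences called 0 genes (limma, 0%), and 246 reached an unadjusted p below 0.05 (1.93%), with a lowest adjusted p of 1.0. Of the 246, the log2 difference was higher in the knockouts for 99 and lower for 147, where lower includes genes that fell more there. The count was 478 and 477 after median-of-ratios scaling and quantile normalization. It was 1021 without knockout vehicle samples 4, 5 and 6, with 31 higher and 990 lower in the knockouts. Wild-type vehicle samples 2 and 5, with protein-coding shares of 6.65% and 5.968%, stayed in that fit. The lowest libraries were thus left out of the knockouts alone, so this count cannot show a difference between the genotypes. In wild type 0 genes were called as well, 1289 at an unadjusted p under 0.05 (10.1%). Each comparison had its own samples. Palm3 averaged 16.5 ± 3.5 TPM in wild-type vehicle (n = 6) and 9.73 ± 4.33 in wild-type dapagliflozin tubules (n = 5), a log2 difference of -0.79 beside -1.13 in the knockouts. Guca2b had 0.80 beside 1.05, Pck1 0.83 beside 0.95 and Slc38a3 0.83 beside 1.14. The male-biased list had a median of 0.95 in wild type beside 0.54 in the knockouts, and late proximal tubule markers 0.78 beside 0.45, on the log2 scale and without subtraction of the all-gene median, which was 0.19 and 0.15. The differences between these list medians were not tested. Hps1 went the other way, with -0.24 in wild type beside 1.28, and the difference between them had an unadjusted p of 0.00104 (limma, adjusted p = 1.0). Trp53i13, Pfdn6, a prefoldin chaperone subunit, and Spc24 had unadjusted p values of 0.000822, 0.0011 and 0.00221, with differences of the log2 differences of -1.20, 1.36 and -1.32. Across the 2510 genes with a mean of 10 TPM or more, the log2 differences of knockouts and wild type had a Spearman correlation of 0.376 and a Pearson correlation of 0.0652. Genes of the same libraries are not independent replicates. Libraries with under 9000 genes detected were vehicle samples 5 and 6 of the knockouts and vehicle samples 2 and 5 of the wild type.

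**Figure D5:**
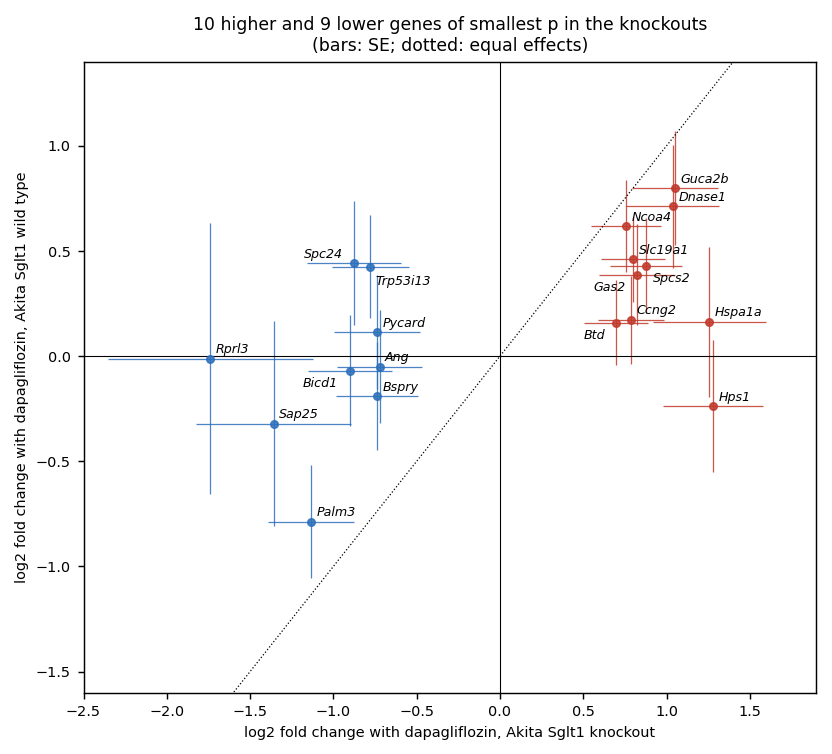
Log2 fold change with dapagliflozin in Akita Sglt1 knockouts (x axis) and Akita wild type (y axis) for the 10 higher and 9 lower genes of smallest p in the knockouts; bars are SE, the dotted line marks equal effects, and n-R5s194 is left out because it was listed at 0 in all knockout dapagliflozin samples. Palm3 (-1.13 and -0.79) and Guca2b (1.05 and 0.80) lie on the same side of 0 in both genotypes, and Hps1 (1.28 and -0.24) does not.

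Non-diabetic knockouts gave the same test for diabetes. The difference between Akita and non-diabetic knockouts called 0 genes (limma, 0%), and 634 reached an unadjusted p below 0.05 (4.98%). The log2 difference was higher in Akita for 584 of them. After median-of-ratios scaling it was higher in Akita for 277 of 564. Without Akita vehicle samples 4, 5 and 6 the direction turned, with 128 higher and 257 lower of 385, and the median over all genes was -0.06. Those samples were left out of Akita vehicle alone, so this turn cannot show a difference with diabetes. Hps1 had the lowest adjusted p, 0.163, with log2 differences of 1.28 in Akita and -0.83 in non-diabetic knockouts. With capture number as a covariate it passed (limma, adjusted p = 0.0381), while over the 3 other scalings the lowest adjusted p of any gene was 0.838. Palm3 averaged 11.6 ± 3.44 TPM in non-diabetic knockout vehicle (n = 5) and 7.41 ± 1.4 in non-diabetic knockout dapagliflozin tubules (n = 6), a log2 difference of -0.55. Guca2b and Pck1 had log2 differences of -0.08 and -0.02 in non-diabetic knockouts, against 1.05 and 0.95 in Akita. For Pck1 the difference between them had an unadjusted p of 0.0355 (limma, adjusted p = 0.876). Under median-of-ratios scaling, nuclear protein-coding rescaling and quantile normalization its unadjusted p was 0.1045, 0.09027 and 0.1368 (limma). Slc38a3 had 0.88 beside 1.14, and its difference had an unadjusted p of 0.58 (limma, adjusted p = 0.926). Heat shock genes had a list median of -0.20 there beside 0.47 in Akita, where the all-gene medians were -0.06 and 0.15. The unadjusted p for the difference was 0.00371 for Guca2b and 0.00391 for Hspa1a, and both had an adjusted p of 0.876. Sox5, a transcription factor, fell by 1.39 in non-diabetic knockouts (limma, adjusted p = 0.0259) and averaged 0.549 and 0.582 TPM in Akita, and its difference between them did not pass (adjusted p = 0.876). Bivm, Ints2, an Integrator subunit, and Bloc1s1, a subunit of a lysosome biogenesis complex, were among the 5 of smallest p, with log2 differences of 0.65, 0.69 and 0.43 in Akita and -0.44, -0.57 and -0.49 in non-diabetic knockouts.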

How the data were processed

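Strand-specific total RNA libraries (SMARTer Pico kit) were made from 0.5 ng of RNA per sample, where over 30% of fragments passed the DV200 size limit, per the labels' protocols. The authors deposited 1 table of TPM. Salmon, MultiQC 1.8 and GRCm38 are named, per the submitters' processing notes, with no version for Salmon. By its name the table lacks outliers, and how these were chosen is not given in the sources used here. It has columns for 48 of 54 labelled samples, and 6, none of them in the 2 groups compared, were not analysed here. Columns were matched by capture number. TPM keeps no depth, so no counting error is given.

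Of 55487 rows, genes with TPM of at least 1 in at least 5 columns were tested on log2(TPM + 1). A model of 9 groups (39 residual degrees of freedom) was fitted in limma 3.58.1 (trend and robust, statmod 1.5.0, R 4.3.3), with Benjamini-Hochberg adjustment within each comparison and calls at an adjusted p under 0.05. Gene positions came from GENCODE for GRCm38 (51893 rows matched). Library measures were compared by exact permutation.

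Genes named are the 10 of smallest p in each direction, leaving out predicted genes and pseudogenes, the 3 of smallest p in each list, Slc5a1, Slc5a2 and the 5 of smallest p in each difference test, and further list members named for their role after their values were seen. The samples, lists and rules were chosen with earlier results of these data known. Alternatives were other pseudocounts, filters, scalings, covariates and sample sets. Leaving out libraries with a protein-coding share under 8% was added after seeing the data. Some genes are not reported here.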

Additional observations from a re-analysis of the deposited data

Results flagged for a closer look

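Single samples lay apart from the other 5 of their group in 22 of 249 groups of values examined. The gap rule used gives about 1 in 20 for independent values with a normal distribution. TPM was not transformed for this rule, and the groups of values share the same 12 libraries. The rate of 1 in 20 is therefore not a chance rate for these values. In dapagliflozin tubules sample 5 was highest for Btd (5.54 TPM), Dld (58.9), Acy3 (699), Ndufb4 (30.7), Entpd5 (33.3), the summed podocyte markers (38.4) and the summed late proximal tubule markers (1900.0). It also had the highest nuclear protein-coding share of the 12 libraries, 14.04%. Dapagliflozin sample 3 was highest for Hsph1 (98.2 TPM), Dnaja1 (78.8), Psma4 (49.1), Pycard (0.878) and Ang (1.43). Dapagliflozin sample 1 was highest for Ephx1 (6.12 TPM) and for summed fibroblast and smooth muscle markers (94.7 TPM). In vehicle tubules sample 3 was highest for Trp53i13 (3.95 TPM), Pycard (3.45), Cldn10 (13.6) and summed thick ascending limb markers (155). Vehicle sample 1 was highest for Etfdh (10.6 TPM), Ier2 (6.20) and summed fibroblast and smooth muscle markers (72), and lowest for Rprl3 (7.77).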

How the results depend on the processing

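The count of 0 genes called in the knockouts held under the other pseudocount, the 3 other filters, fits to the compared groups alone, both covariates, limma without trend and robust, and without the libraries with fewest genes or lowest protein-coding share. It became 3 after median-of-ratios scaling, 2 after nuclear protein-coding rescaling and 2 after quantile normalization, all lower. Leaving out 1 sample gave 0 to 1, with 1 (Spcs2) without dapagliflozin sample 4. The genotype difference called 0 in every alternative run, and 0 to 0 on leaving out 1 sample. The diabetes difference called 1 gene, Hps1, with capture number as a covariate, and 0 to 1 on leaving out 1 sample, with 1 without Akita dapagliflozin sample 2. At an unadjusted p under 0.05 the knockouts gave 967 genes, but 1650 without a filter, 596 in the compared groups alone and 518 without the libraries with fewest genes. The 246 of the genotype difference became 752 without a filter, 159 with a stricter one, 478 and 477 after median-of-ratios scaling and quantile normalization, 458 with genes detected as a covariate and 1021 without vehicle samples 4, 5 and 6. The 634 of the diabetes difference became 1361 without a filter, 327 without the libraries with fewest genes, 385 without vehicle samples 4, 5 and 6 and 417 without vehicle sample 6. Some log2 differences turned in sign, and not all of them were near 0. Without vehicle samples 4, 5 and 6 this held for Atp1b1 (-0.09035), Cdh16 (-0.05296), Lrp2 (-0.05154), Slc34a1 (-0.2343), G6pc (-0.1083) and Slc9a3 (-0.3094). With all samples Atp1b1, Cdh16 and Lrp2 had 0.39, 0.54 and 0.42. The median of all genes was 0.15 with all samples and -0.12 without those 3. Under median-of-ratios scaling, nuclear protein-coding rescaling, quantile normalization, the genes detected covariate and without the libraries with fewest genes, G6pc was -0.1546, -0.1822, -0.155, -0.1012 and -0.1002, and Slc9a3 -0.1122, -0.1388, -0.111, -0.04276 and -0.1097. Slc34a1 was -0.02344 under nuclear protein-coding rescaling. On leaving out 1 sample, G6pc ran up to 0.2579 and Slc9a3 up to 0.3165, while G6pc was -0.0255, -0.135 and -0.055 without dapagliflozin sample 3, dapagliflozin sample 5 and vehicle sample 6, and Slc9a3 -0.02591 without vehicle sample 6. No paired analysis was possible because sample numbers follow accession order and only name samples. Depth is unknown, and 6 samples per group limit precision.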
